A study of Mus musculus with 20 samples.

Results

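Nodal, Gdf3, Lefty1, Lefty2, Tdgf1, Acvr1b, Acvr2b, Smad2, Smad3 and Smad7 encode ligands, inhibitors, receptors and transducers of Nodal and Activin signaling. They are 10 of the 23284 genes in the deposited tables, and were chosen by name, not by a measured value. All 10 were matched by symbol and passed the filter on low counts. The 20 libraries came from mouse embryonic stem cells (ESCs) grown on gelatin with serum and leukemia inhibitory factor. CRISPR had placed a Flag, HA and Twin-Strep tag at the C-terminus of an endogenous Tet protein, an enzyme family that oxidizes methylated cytosine. The Tet1-KI line carried tagged Tet1, the Tet2-KI line tagged Tet2, and the Tet2-delta-RNA-binding-domain-KI line (Tet2dRBD) a tagged Tet2 without its RNA-binding domain (RBD), all in otherwise wild-type cells and all derived from picked clones. They are called the Tet1, Tet2 and Tet2dRBD lines here. For each line, RNA bound by anti-Flag antibody (IP) was sequenced next to total RNA (input), with 2 IP and 2 input libraries for Tet1 and 4 of each for Tet2 and for Tet2dRBD. The IP started from cytoplasmic extract, so that binding and cytoplasmic location cannot be told apart in a ratio of IP to input. Libraries of IgG control reactions were not analysed here. The comparisons ask which of these mRNAs were recovered with each Tet protein, whether recovery with Tet2 depended on the RBD, and how much the mRNAs themselves varied among the lines.

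Nodal and Gdf3 are secreted ligands of the TGF-β family, and both need the membrane-anchored coreceptor Tdgf1 (Cripto) to engage the type I receptor Acvr1b (Alk4) and the type II receptors Acvr2a and Acvr2b. The activated receptors phosphorylate Smad2 and Smad3, which enter the nucleus with Smad4 and act with partners such as Foxh1. Lefty1 and Lefty2 are secreted inhibitors that are themselves targets of the pathway, and Smad7 blocks the receptors from inside the cell. In the embryo the pathway patterns the epiblast and induces mesoderm and endoderm.

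The libraries held between 21078995 and 37576638 expected counts each. The numbering of the deposited data divided them into 3 library sets, which the sample labels do not name. Replicate 1 of Tet2 and of Tet2dRBD formed library set 1, replicate 2 of both formed set 2, and replicates 3 and 4 of both, with all Tet1 libraries, formed set 3. Set 1 stood apart for several of the genes described here, so the main results that include it are also given without it. Replicates of a group differed by a chi-square of 2.69 to 16.1 per gene within a set (6 pairs) and of 132 to 527 between sets (20 pairs). The study describes its RIP-Seq as done in biological duplicate or more, but the labels do not say which libraries came from separate cultures, and p-values over libraries of 1 set may measure technical spread. The pluripotency markers Pou5f1, Sox2, Nanog, Zfp42, Esrrb, Klf4, Dppa5a and Utf1 summed to 13742 to 17871 TPM (a level corrected for transcript length and library depth) in the 10 inputs, and the mesendoderm markers T, Mixl1, Eomes and Gsc to 2.45 to 5.81 TPM. Dppa5a alone was at 8953 to 12324 TPM in the Tet2 and Tet2dRBD inputs, so the pluripotency sum can hide changes in its other markers. In the input, Tet1 mRNA lay between 8.54 and 17.3 TPM, Tet2 mRNA between 2.49 and 9.21 TPM and Tet3 mRNA between 0.81 and 2.44 TPM. Total RNA cannot tell fewer cells that express a gene from less of its RNA per cell.

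Nodal (chr10:60880720-60888086, plus strand, mouse build mm9) lay between 77.4 and 111 TPM in the 8 inputs outside library set 1. It was at 77.5 and 77.4 TPM in Tet1 input. In the Tet2 line it was 11.8, 88.8, 89.2 and 92.1 TPM in replicates 1 to 4, and in the Tet2dRBD line 14.8, 111, 83.4 and 80.7 TPM. Replicate 1 was the lowest library in both lines, and the ranges of the other libraries of the Tet2 and Tet2dRBD lines overlapped. Gdf3 (chr6:122555421-122560105, minus strand) was likewise lowest in replicate 1. It was at 95.8 and 96.8 TPM in Tet1 input, at 14.8, 123, 136 and 141 TPM in Tet2 input, and at 16.2, 131, 117 and 108 TPM in Tet2dRBD input.

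Tdgf1 (chr9:110842114-110848662, minus strand) was by far the most abundant of these mRNAs. Its input level was 2725 and 2505 TPM in the Tet1 line, 669.9, 1199.7, 1999 and 1819 TPM in the Tet2 line, and 734, 949.8, 1583 and 1657 TPM in the Tet2dRBD line. The order Tet1, then replicates 3 and 4, then replicate 2, then replicate 1 held in both Tet2 lines. The receptors were far lower. Acvr1b (chr15:101004556-101043032, plus strand) lay between 10.8 and 23.0 TPM over the 10 inputs and Acvr2b (chr9:119311562-119342619, plus strand) between 4.25 and 11.0 TPM.

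Of the intracellular Smads, Smad2 and Smad3 were low in the input and the inhibitor Smad7 was higher. Smad2 (chr18:76401234-76465385, plus strand) lay between 6.58 and 11.4 TPM and Smad3 (chr9:63494574-63605801, minus strand) between 3.25 and 9.90 TPM. Smad7 (chr18:75527183-75555589, plus strand) lay between 31.0 and 65.6 TPM, above Smad2 and Smad3 in each input on this length-corrected scale. Smad2 and Smad3 overlapped in range, and Smad3 exceeded Smad2 only in Tet2dRBD replicate 2. Acvr1b and Smad2 also overlapped in range, but Acvr1b was the higher in each of the 10 inputs, by as little as 11.5 against 11.4 TPM in Tet2dRBD replicate 1.

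**Figure D1:**
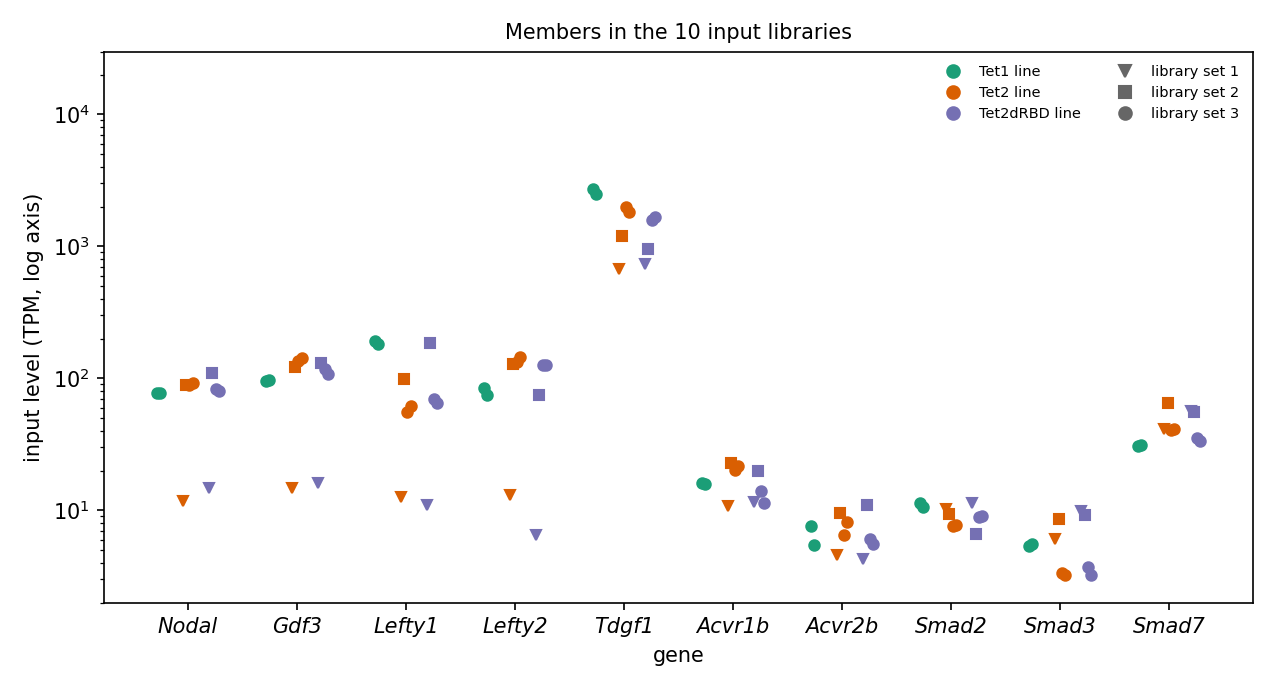
Input level in TPM on a log axis for the 10 genes, 1 point per library, colored by line and shaped by library set. The triangles of library set 1 lie far below the other points for Nodal, Gdf3, Lefty1 and Lefty2, and within or near them for the receptors and Smads.

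Lefty1 (chr1:182865153-182868531, plus strand) and Lefty2 (chr1:182823239-182829234, plus strand) both lie on chromosome 1 and are close copies. Their coding sequences have 1107 bases each, of which 1017 (91.9%) are identical. The window of 100 coding bases with the most differences is shown because reads from it separate the genes. It covers coding positions 39 to 138 in exon 1, at chr1:182865279-182865378 in Lefty1 and chr1:182823353-182823452 in Lefty2, on the plus strand of mm9, and capitals mark the 30 bases that differ.
Lefty1: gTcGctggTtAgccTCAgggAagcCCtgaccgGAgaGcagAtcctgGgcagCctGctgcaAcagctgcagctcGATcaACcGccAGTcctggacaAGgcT
Lefty2: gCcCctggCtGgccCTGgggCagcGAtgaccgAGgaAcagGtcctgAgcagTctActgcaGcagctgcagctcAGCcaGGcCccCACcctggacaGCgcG

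Of all windows of 50 bases in the Lefty1 transcript, 281 of 1571 (17.9%) also occur in the Lefty2 transcript, and they make up 11.6% of the 2424 windows of Lefty2. RSEM divides reads that fit several transcripts between them by estimation, so the values of both genes carry that uncertainty.

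The order of the inhibitors was not fixed. In the Tet1 inputs Lefty1 was at 191 and 183 TPM and Lefty2 at 84.9 and 74.5 TPM, a ratio of 2.25 and 2.45. In the Tet2 inputs Lefty1 was at 12.6, 99.3, 55.8 and 61.9 TPM and Lefty2 at 13.0, 128, 134 and 146 TPM, with ratios of 0.967, 0.773, 0.417 and 0.424. In the Tet2dRBD inputs Lefty1 was at 11.0, 185, 69.4 and 64.8 TPM and Lefty2 at 6.48, 75.0, 126 and 127 TPM, with ratios of 1.70, 2.46, 0.550 and 0.512. Lefty1 thus exceeded Lefty2 in Tet1 and in replicates 1 and 2 of Tet2dRBD, and Lefty2 exceeded Lefty1 in Tet2 and in replicates 3 and 4 of Tet2dRBD. Within the Tet2dRBD line the order thus turned between library sets. The IP libraries kept the order of their own input, except in Tet2 replicate 1, where the ratio was 1.17 in IP.

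**Figure D2:**
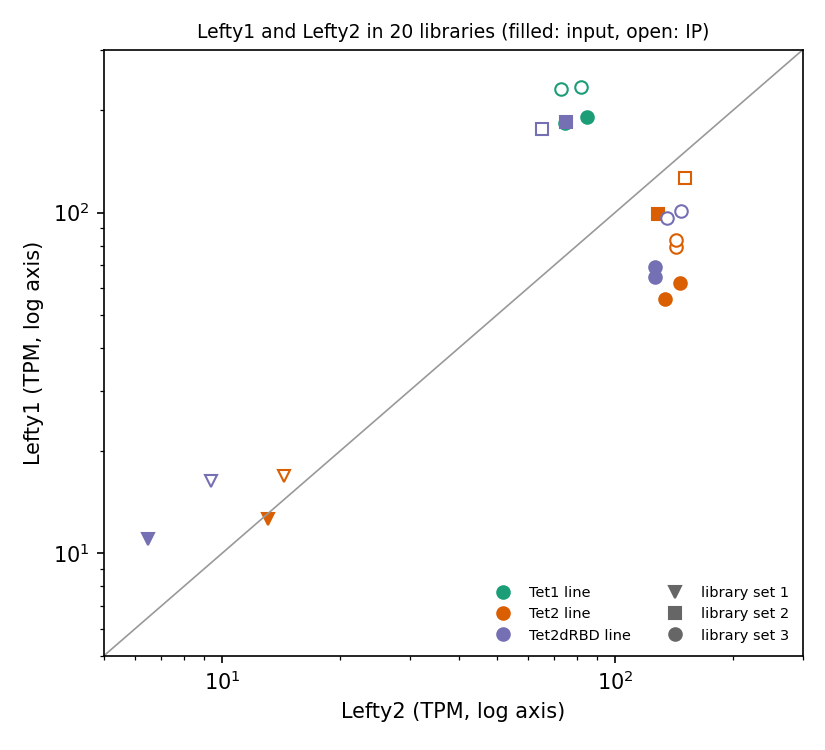
Lefty1 against Lefty2 in TPM on log axes for the 20 libraries, filled for input and open for IP, colored by line and shaped by library set, with the line of equality. The Tet1 libraries and Tet2dRBD replicate 2 lie above the line, and the Tet2 and Tet2dRBD libraries of set 3 lie below it.

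The largest differences followed the library set. In a fit over the 10 inputs with line and set as terms, a comparison added after the data were seen, set 1 was lower than set 3 for the ligands, the inhibitors and the coreceptor, and higher for the 3 Smads. Nodal fell by 2.63 ± 0.16 (SE) on the log2 scale (6.17-fold, edgeR adjusted p = 2.01e-06). Gdf3 fell by 2.93 ± 0.15 (7.63-fold). Lefty1 fell by 2.31 ± 0.23 (4.96-fold), and Lefty2 fell by 3.74 ± 0.20 (13.4-fold), the largest change of the 10. The coreceptor Tdgf1 fell by 1.24 ± 0.10 (2.36-fold). Smad3 was higher by 1.29 ± 0.15 (2.44-fold). Smad7 was higher by 0.47 ± 0.13 (adjusted p = 0.0137) and Smad2 by 0.47 ± 0.12 (adjusted p = 0.00945). These Smad7 and Smad2 calls were lost with limma (adjusted p = 0.0557 and 0.0761) and without Tet2dRBD replicate 1 (0.14, adjusted p = 0.304, and 0.42, adjusted p = 0.0905), and without Tet2 replicate 1 Smad7 was at 0.78. The other 6 calls held in all 4 alternatives run. Acvr1b at -0.47 ± 0.19 (adjusted p = 0.0582) and Acvr2b at -0.48 ± 0.21 (adjusted p = 0.0712) did not pass. In all, 5 genes of 10 were lower and 3 higher, against 30.5% lower and 31.2% higher of the 13310 genes tested and 61.7% in either direction. Passing the test was therefore common, and the median log2 ratio of the 10 genes was -0.86 against -0.01 for all genes tested.

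The IP libraries of set 1 held the same low levels. In the Tet2 IP, Lefty2 was at 14.4 TPM in replicate 1 and at 143 to 151 TPM in the others, and Nodal was at 14.3 TPM against 109 to 134 TPM. In the Tet2dRBD IP, Gdf3 was at 14.0 TPM in replicate 1 and at 106 to 124 TPM in the others. Groups of markers moved with the set. The endoderm markers Gata4, Gata6, Sox17 and Foxa2, all 4 of them detected in every input, summed to 72.3 and 93.9 TPM in the set 1 inputs, to 30.8 and 64.0 TPM in set 2 and to 5.14 to 34.5 TPM in set 3, and all 4 passed the test as higher in set 1. The fibroblast markers Col1a1, Col1a2, Thy1 and Postn summed to 10.6 and 14.6 TPM in set 1 and to 13.9 to 62.8 TPM in the other sets, with Postn at 0 in sets 1 and 2. The primed epiblast markers Fgf5, Otx2 and Dnmt3b summed to 70.2 and 78.5 TPM in set 1, within the range of the other inputs (38.9 to 167 TPM), but Otx2 alone passed as higher in set 1 (1.79 ± 0.17), at 32.3 and 35.8 TPM against 5.97 to 28.8 TPM. The neural markers Sox1, Pax6 and Nes summed to 9.04 and 13.1 TPM in set 1 and to 12.6 to 20.96 TPM elsewhere. Of the 8 pluripotency markers, 3 passed as higher and 1 as lower in set 1, against 31.2% and 30.5% of all genes. Sox2 was at 463 and 508 TPM in set 1 and at 228 to 296 TPM in the other Tet2 and Tet2dRBD inputs. The part of these markers in the differences was not tested.

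Among the other genes of the pathway, 23 of 29 were tested in the set comparison, and 8 were higher and 7 lower in set 1. Of all genes tested, 31.2% were higher and 30.5% lower. The lowest were the Activin B subunit gene Inhbb, which fell by 2.71 ± 0.34 on the log2 scale, the Activin-binding protein gene Fst, which fell by 2.33 ± 0.48, and the type II receptor gene Acvr2a, which fell by 1.79 ± 0.39 from a low level of at most 2.04 TPM in any input. Among those higher in set 1 were the ubiquitin ligase gene Smurf1 (1.19 ± 0.10) and the T-box gene Eomes (1.16 ± 0.25), a known target of Nodal signaling. The target Mixl1, named after its value was seen, was lower (-1.40 ± 0.42). Its level was near the floor, at 0.18 and 0.30 TPM in the set 1 inputs and at most 0.89 TPM in any input.

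Tet1 and Tet2 inputs were compared within library set 3, the set that holds Tet1. Lefty1 was higher in Tet1 by 1.55 ± 0.07 on the log2 scale (2.93-fold, edgeR adjusted p = 8.03e-06) and Lefty2 fell by 0.93 ± 0.07 (1.90-fold, adjusted p = 3.93e-05). Gdf3 fell by 0.64 ± 0.07 and Nodal fell by 0.34 ± 0.06. Acvr1b fell by 0.51 ± 0.11 and Smad7 fell by 0.51 ± 0.07. Smad3 was higher by 0.61 ± 0.12, Smad2 by 0.40 ± 0.07 and Tdgf1 by 0.34 ± 0.08. Acvr2b did not pass (-0.27 ± 0.18, adjusted p = 0.238). Of the 10 genes, 4 were higher and 5 lower, against 24.9% higher and 24.9% lower of the 12999 genes tested, or 49.8% in all. The median log2 ratio of the 10 genes was -0.31 against -0.02 for all genes. The test rests on 2 Tet1 and 2 Tet2 libraries of set 3, with the spread shared with 2 Tet2dRBD libraries. In a fit of all 10 inputs with the set as a term 5 of the 10 passed, and without that term none did.

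Markers also differed between these inputs. The endoderm markers summed to 20.96 and 21.2 TPM in Tet1 and to 5.14 and 5.20 TPM in Tet2, and all 4 passed as higher. The primed epiblast markers summed to 116 and 117 TPM in Tet1 and to 38.9 and 39.5 TPM in Tet2, with Dnmt3b and Fgf5 higher and Otx2 lower by the test. Of the 8 pluripotency markers, 2 passed as higher and 3 as lower in Tet1. The fibroblast markers summed to 13.9 and 16.0 TPM in Tet1 and to 41.4 and 42.1 TPM in Tet2. Their part in the differences was not tested, and each line was derived from picked clones, so that tag and clone cannot be told apart. Of the 23 other pathway genes tested, 9 were higher in Tet1 and 7 lower, against 24.9% of all genes tested in each direction. Among those higher were Eomes (1.53 ± 0.17) and the Smad corepressor gene Skil (1.29 ± 0.11). The inhibin alpha gene Inha was lowest (-1.96 ± 0.19), followed by Inhbb (-1.58 ± 0.06) and Fst (-1.38 ± 0.17).

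**Figure D3:**
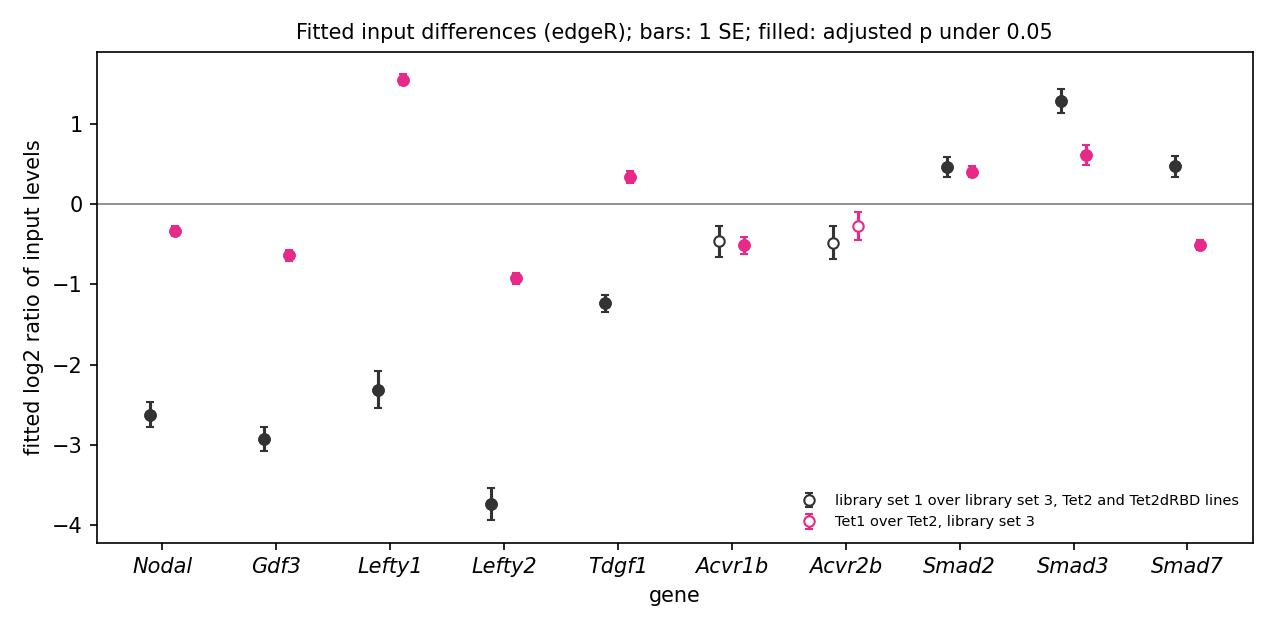
Fitted log2 ratio of input levels with 1 SE for library set 1 over set 3 and for Tet1 over Tet2 within set 3, by gene; filled points passed an adjusted p of 0.05. Lefty2 at -3.74 and Gdf3 at -2.93 are the lowest values of the set comparison, and Lefty1 at 1.55 and Lefty2 at -0.93 are the outermost values of the line comparison.

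Deletion of the RBD was compared in the inputs of the Tet2dRBD and Tet2 lines. None of the 10 genes passed, at an adjusted or at an unadjusted p of 0.05, with edgeR, DESeq2 or limma. Of the 13178 genes tested, 0% passed with edgeR, which does not show that the lines were alike. An unadjusted edgeR p under 0.05 was found for 248 of these genes, and for 1648 with the replicate number as a block. The fitted log2 ratios of Tet2dRBD over Tet2 ran from -0.40 ± 0.29 for Acvr1b to 0.55 ± 0.74 for Lefty1. The standard errors of Nodal (0.65), Gdf3 (0.69), Lefty1 (0.74) and Lefty2 (0.82) were the largest of the group, and replicate 1 lay far from the other replicates in both lines. Without library set 1 the standard errors of Nodal and Gdf3 were 0.20 and 0.19, the fitted values were 0.04 and -0.16, and again none of the 10 passed. With the replicate number as a block none of the 10 passed after adjustment, and 1 did at an unadjusted p of 0.05. Some marker sums differed within library set 3. Endoderm markers summed to 32.0 and 34.5 TPM in Tet2dRBD input and to 5.14 and 5.20 TPM in Tet2 input. Primed epiblast markers summed to 65.4 and 66.1 TPM against 38.9 and 39.5 TPM, and fibroblast markers to 36.8 and 40.3 TPM against 41.4 and 42.1 TPM. Over all replicates no endoderm marker passed (log2 ratios 0.85 to 1.22). The part of these markers was not tested.

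Recovery in the IP was first read pair by pair, as a higher TPM + 1 in IP than in its own input in all pairs of a line. Nodal, Lefty1, Acvr1b, Acvr2b, Smad3 and Smad7 met this in both Tet1 pairs, 6 of 10 against 33.5% of all 23284 genes. The same 6 met it in all 4 Tet2 pairs, against 28.6% of genes. Without replicate 1 the Tet2 count was again 6, against 31.1% of genes. None of the 10 met it in all 4 Tet2dRBD pairs, against 19.9% of genes. Without Tet2dRBD replicate 2, 7 of the 10 were above input in the 3 pairs left, against 34% of genes, and without replicate 1 none was, against 21.5%. Lefty2, Tdgf1 and Smad2 were below input in both Tet1 pairs, against 20.7% of genes, and no gene of the 10 was below input in every pair of Tet2 (7.71% of genes) or of Tet2dRBD (5.58%). All of these shares include genes without reads, which can lie neither above nor below their input. Only 13710 of the 23284 genes passed the count filter of the IP fit, as all 10 did. Shares among those genes were not computed, so the counts of the 10 cannot be set against expressed genes alone.

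The values behind these counts were small. For Nodal, the log2 ratio of IP to input was 0.47 and 0.49 in the Tet1 pairs, 0.26, 0.29, 0.58 and 0.50 in the Tet2 pairs and 0.55, -0.14, 0.78 and 0.78 in the Tet2dRBD pairs. For Lefty1 it was 0.29 and 0.33, then 0.39, 0.34, 0.50 and 0.42, then 0.53, -0.07, 0.53 and 0.57, in the same order of lines. Both genes were above input in each pair but that of Tet2dRBD replicate 2. Acvr1b had ratios of 0.10 and 0.33 in Tet1, of 0.62, 0.99, 0.62 and 0.44 in Tet2 and of 0.59, -0.18, 0.88 and 0.91 in Tet2dRBD. Smad3 had ratios of 0.19 and 0.24 in Tet1, of 0.74, 0.96, 0.41 and 0.35 in Tet2 and of 0.51, -0.08, 0.64 and 0.78 in Tet2dRBD. The receptor Acvr2b and the inhibitor Smad7 followed the same pattern, with ratios between 0.15 and 0.77 in the 6 pairs of Tet1 and Tet2 and with Tet2dRBD replicate 2 at -0.01 and -0.23. These ratios carry an offset, since the median over the 11784 genes with a mean input of at least 1 TPM was itself 0.05 and 0.11 in the Tet1 pairs, 0.12 to 0.38 in the Tet2 pairs and 0.01 to 0.26 in the Tet2dRBD pairs.

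Tdgf1 went the other way in most pairs. Its log2 ratio was -0.30 and -0.25 in the Tet1 pairs, 0.31, -0.19, -0.31 and -0.36 in the Tet2 pairs and 0.08, 0.01, -0.32 and -0.39 in the Tet2dRBD pairs. It was below input in all 6 pairs of library set 3, and above input in both pairs of set 1. Smad2 was above input in the pairs of sets 1 and 2 and between -0.34 and 0.01 in those of set 3, with -0.34 and -0.30 in the Tet1 pairs, 0.58, 0.49, 0.01 and -0.13 in the Tet2 pairs and 0.28, 0.24, -0.09 and -0.16 in the Tet2dRBD pairs. Gdf3, between -0.33 and 0.35, and Lefty2, between -0.20 and 0.47, lay on both sides of 0.

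**Figure D4:**
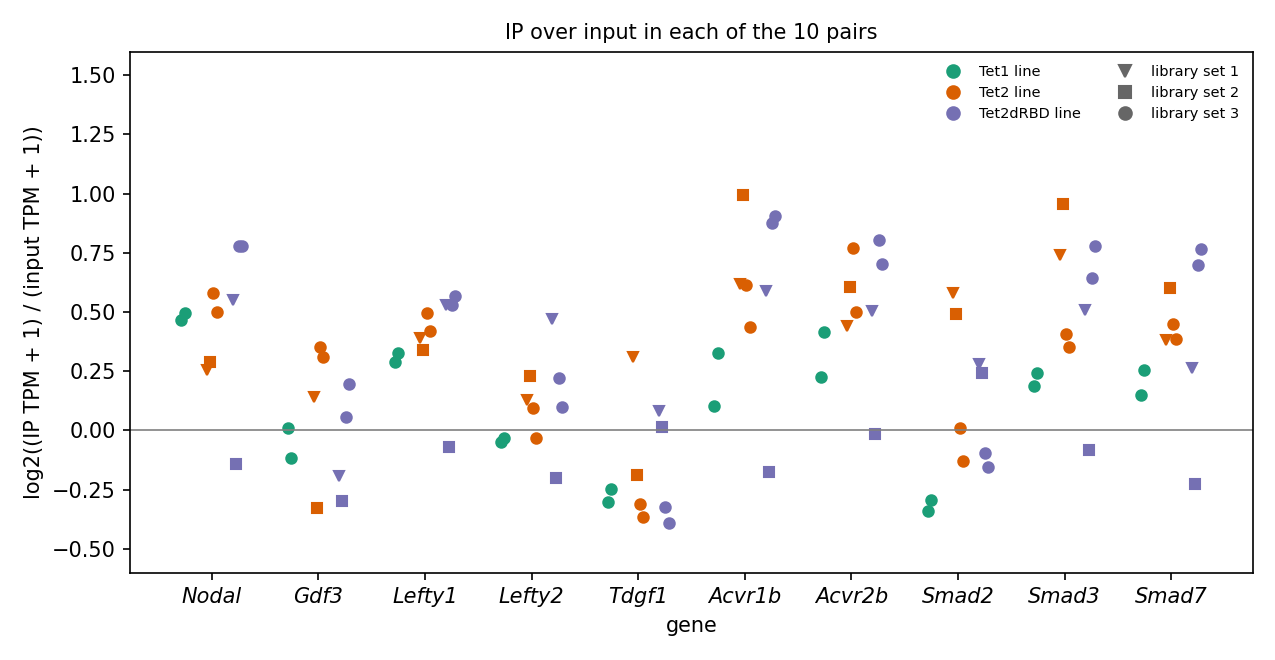
log2 ratio of IP to input from TPM + 1 for each of the 10 pairs, by gene, colored by line and shaped by library set. Acvr1b and Smad3 reach 0.99 and 0.96 in Tet2 replicate 2, Tdgf1 lies below 0 in the 6 pairs of set 3, and the purple squares of Tet2dRBD replicate 2 lie at or below 0 for all genes but Smad2 and Tdgf1.

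The fit on expected counts scaled by TMM gave a lower value than the mean pair ratio for each of the 10 genes in each line. TMM, which sets the bulk of genes near 0, was only 1 of the steps between them. In the Tet2 IP the median log2 ratio of all genes was 0.23 with limma on log2(TPM + 1). It was 0.08 with edgeR on counts without TMM and 0.00 with TMM. In the Tet2 IP, Tdgf1 fell by 0.46 ± 0.14 on the log2 scale (1.37-fold, edgeR adjusted p = 0.0253), and Smad3 was higher by 0.39 ± 0.14 (1.31-fold, adjusted p = 0.0463). The type I receptor Acvr1b (0.38 ± 0.14, adjusted p = 0.0627) and the type II receptor Acvr2b (0.33 ± 0.14, adjusted p = 0.0922) did not pass. These counts, 1 gene of 10 higher and 1 lower, stand against 14.6% of the 13710 genes tested as higher and 18.5% as lower. Without library set 1, Tdgf1 passed (-0.54 ± 0.15, adjusted p = 0.0336) and Smad3 did not (0.42 ± 0.17, adjusted p = 0.115). Smad3 also lost its call when any 1 of the 4 Tet2 pairs was left out, and Tdgf1 lost its call without replicate 2, 3 or 4. With replicates 3 and 4 merged, both calls were lost and none of the 10 passed. With limma on log2(TPM + 1), where the median of all genes was 0.23, Tdgf1 was at -0.14 (adjusted p = 0.402) and did not pass, and the 6 genes that passed, Nodal, Lefty1, Acvr1b, Acvr2b, Smad3 and Smad7, were all higher. A higher call was common in that fit, with 4801 of the 13710 genes higher and 1113 lower.

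In the Tet2dRBD IP, Tdgf1 fell by 0.43 ± 0.14 (1.35-fold, adjusted p = 0.0469) and no other gene of the 10 passed. That is 0 genes higher and 1 lower, against 7.4% and 12.1% of the genes tested. Without library set 1 Tdgf1 was at -0.40 ± 0.15 (adjusted p = 0.111) and did not pass. Without Tet2dRBD replicate 2, Tdgf1 (-0.51), Acvr1b (0.54), Acvr2b (0.47) and Smad3 (0.45) all passed. Tdgf1 lost its call when replicate 1, 3 or 4 was left out, and when replicates 3 and 4 were merged. It also lost it with limma (-0.15, adjusted p = 0.38), where Nodal, Lefty1, Acvr1b, Acvr2b and Smad3 passed as higher. That limma fit called 3224 of 13710 genes higher and 629 lower.

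In the Tet1 IP none of the 10 passed with edgeR at an adjusted p of 0.05, against 2.72% of genes higher and 3.18% lower. At an unadjusted p of 0.05, 2 of the 10 passed, namely Smad2 (-0.50 ± 0.18, adjusted p = 0.13) and Tdgf1 (-0.42 ± 0.19, adjusted p = 0.21), and DESeq2 and limma called none after adjustment. Nodal had the highest fitted value (0.34 ± 0.20, adjusted p = 0.336). In a fit of the 4 Tet1 libraries alone 6 of the 10 passed, with Nodal and Lefty1 higher and Gdf3, Lefty2, Smad2 and Tdgf1 lower, but there 6985 of 12691 genes tested passed.

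**Figure D5:**
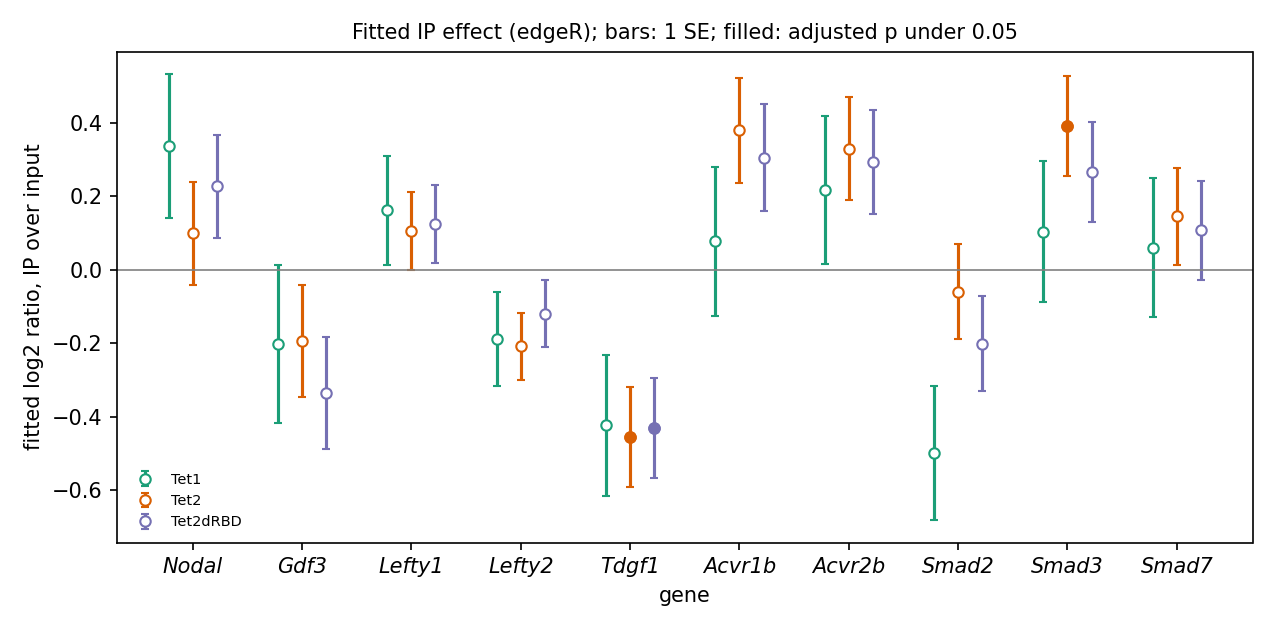
Fitted log2 ratio of IP to input with 1 SE for the 10 genes in each line; filled points passed an adjusted p of 0.05. Tdgf1 lies at -0.42 to -0.46 in all 3 lines and is filled for Tet2 and Tet2dRBD, and Smad3 at 0.39 is filled for Tet2.

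The median fitted log2 ratio of the 10 genes was 0.07 in Tet1, 0.10 in Tet2 and 0.12 in Tet2dRBD, beside -0.04, 0.00 and -0.01 for all genes tested. Without TMM the median of all genes moved to 0.08 in Tet2 and 0.12 in Tet2dRBD. The split of called genes then turned from 2007 higher and 2533 lower to 2576 higher and 2044 lower in Tet2, and from 1014 and 1660 to 1937 and 947 in Tet2dRBD. Without TMM, Acvr1b (0.45, adjusted p = 0.0361) and Smad3 (0.47, adjusted p = 0.0255) passed in the Tet2 IP and Tdgf1 did not (-0.38, adjusted p = 0.0572). In the Tet2dRBD IP Tdgf1 did not pass either (-0.29, adjusted p = 0.152). Smad2 in Tet2 turned from -0.06 to 0.01 and Lefty2 in Tet2dRBD from -0.12 to 0.02, none of them past the threshold.

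The question of RBD dependence was put to a direct contrast, the Tet2 effect minus the Tet2dRBD effect. None of the 10 genes passed at an adjusted or unadjusted p of 0.05 with edgeR, DESeq2 or limma, and 0.0219% of the 13710 genes tested passed with edgeR. The differences of Tet2 minus Tet2dRBD ran from -0.13 ± 0.20 for Nodal to 0.14 ± 0.18 for Smad2, with Tdgf1 at -0.03 ± 0.19 and Smad3 at 0.13 ± 0.19. The Smad3 call in Tet2 and its absence in Tet2dRBD are thus not shown to differ. Without library set 1 none of the 10 passed either.

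The Tet1 and Tet2 effects were contrasted in the same way, with the same Tet2 libraries as in the RBD contrast. None of the 10 genes and 0% of all genes tested passed with edgeR, and at an unadjusted p of 0.05 none of the 10 passed with edgeR or DESeq2 and 1 passed with limma. The differences of Tet1 minus Tet2 ran from -0.44 ± 0.22 for Smad2 to 0.24 ± 0.24 for Nodal. With library set 3 alone, the set that holds Tet1, 314 of 13379 genes passed, none of the 10 did, and 3 of the 10 had an unadjusted p under 0.05. There the Nodal difference was -0.04 ± 0.08, and Gdf3 had the largest, at -0.36 ± 0.11 (adjusted p = 0.0977).

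Of the other pathway genes, 23 of 29 were tested in the IP fits. In the Tet2 IP 4 were higher and 5 lower, in the Tet2dRBD IP 2 were higher and 3 lower, and in the Tet1 IP none was higher and 2 were lower. Of the 13710 genes tested, 14.6% were higher and 18.5% lower in the Tet2 IP. The shares were 7.4% and 12.1% in the Tet2dRBD IP, and 2.72% and 3.18% in the Tet1 IP. The type II receptor gene Acvr2a had the highest ratio. Its level was 0.33, 0.49, 1.14 and 1.12 TPM in Tet2 input and 1.93, 2.11, 3.41 and 2.96 TPM in Tet2 IP. In the Tet2dRBD line it was at 0.40, 0.23, 1.09 and 2.04 TPM in input and at 1.89, 1.52, 3.36 and 2.58 TPM in IP, where the groups overlapped. The fitted log2 ratio was 1.57 ± 0.32 in Tet2 (adjusted p = 0.00474) and 1.39 ± 0.33 in Tet2dRBD (adjusted p = 0.0168), and 1.59 ± 0.46 in Tet1 (adjusted p = 0.065). The ubiquitin ligase gene Trim33 (0.63 ± 0.22) and the repressor gene Tgif2 (0.50 ± 0.11) were also higher in the Tet2 IP, and Skil (0.34 ± 0.10) in the Tet2dRBD IP. Without library set 1, Acvr2a passed in Tet2 (1.44 ± 0.38, adjusted p = 0.03) and not in Tet2dRBD (1.30 ± 0.39, adjusted p = 0.0706), Tgif2 passed, and Trim33 (adjusted p = 0.0776) and Skil (adjusted p = 0.106) did not. Trim33 then passed in Tet1 (1.13 ± 0.23, adjusted p = 0.0255).

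Tgif1, a homeodomain repressor that binds Smad2, and Foxh1, the DNA-binding partner of the Smads, were lower in the IP of all 3 lines by the fit. Tgif1 was at 257 and 258 TPM in Tet1 input and at 191 and 183 TPM in Tet1 IP. It fell by 0.62 ± 0.12 on the log2 scale in Tet1 (adjusted p = 0.0227), fell by 0.72 ± 0.09 in Tet2 and by 0.62 ± 0.09 in Tet2dRBD. Foxh1 fell by 0.53 ± 0.14 in Tet1 (adjusted p = 0.0474), by 0.48 ± 0.10 in Tet2 and by 0.33 ± 0.10 in Tet2dRBD. In TPM, Foxh1 in Tet2dRBD was at 29.6, 39.42, 38.35 and 39.54 in IP and at 26.49, 52.14, 39.08 and 37.84 in input. Its IP was thus above input in replicates 1 and 4 of that line. Among the extracellular inhibitors of Activin, Fst fell by 0.93 ± 0.24 in Tet2, and Fstl3 fell by 0.59 ± 0.18 in Tet2 and by 0.85 ± 0.18 in Tet2dRBD, from levels of at most 8.96 TPM for Fst and 4.83 TPM for Fstl3 in any input. Without library set 1, Tgif1 passed in all 3 lines, Foxh1 in Tet2 and not in Tet1 (adjusted p = 0.06) or Tet2dRBD (adjusted p = 0.137), and Fst and Fstl3 in Tet2 and Tet2dRBD. Acvr1c, Cer1, Cfc1, Gsc, Inhba and T did not reach the count filter, and Acvr1c was at 0 TPM in every input.

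Across the 10 inputs, Nodal and Gdf3 were alike (Pearson r = 0.994 of log2(TPM + 1)), as were Lefty2 and Gdf3 (r = 0.967). The 2 libraries of set 1 lay far below the rest in all 3 genes, and they share their library set. Over the 8 other inputs r was 0.766 for Nodal and Gdf3 and 0.560 for Lefty2 and Gdf3. The remaining pairs of these ligands and inhibitors lost their likeness there. For Nodal, r went from 0.941 to -0.037 with Lefty2 and from 0.869 to 0.017 with Lefty1. For Lefty1, it went from 0.826 to -0.567 with Gdf3 and from 0.744 to -0.946 with Lefty2. Over the 8467 genes with a mean input of at least 5 TPM, the genes most like Nodal were Xylt2 (r = 0.999), Tmem127 (0.998) and Aurkaip1 (0.997). Those most like Lefty1 were Gm98 (0.992), Pmel (0.991) and Aplp1 (0.990). Those most like Lefty2 were Gap43 (0.991), Chga (0.989) and Ppap2a (0.989), and those most like Tdgf1 were Scamp1 (0.992), Tfrc (0.983) and Lsm6 (0.981). Over the 8 inputs outside set 1 these 12 pairs had r from 0.870 to 0.991. The 12 pairs were picked by r over the 10 inputs, which include these 8. Their high r over the 8 is thus in part set by that choice, unlike that of the pathway pairs. The 12 pairs are given as a description, with no test.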

How the data were processed

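RNA immunoprecipitates and inputs of 3 tagged mouse ESC lines were measured. The authors removed reads of rRNA and tRNA and quantified the RefSeq transcriptome of mm9 with RSEM; the submitters' processing notes also name Trimmomatic, FastQC and Bowtie2. Versions were not given in the sources used here. The deposited tables hold expected counts, which were rounded to whole numbers here, and TPM + 1, from which 1 was subtracted. The deposited FPKM column was not used. Genes with 1 CPM in at least 2 libraries were tested with the quasi-likelihood test of edgeR 4.0.16 (R 4.3.3) after TMM scaling, with Benjamini-Hochberg adjustment over all genes tested and a threshold of 0.05. The IP fit used all 20 libraries, a block for each pair of IP and input with the same replicate number, and an IP effect for each line (7 residual degrees of freedom). Deviations from group means correlated at 0.58 to 0.86 within such pairs of the Tet2 and Tet2dRBD lines, and at 0.18 for Tet1. Between IP and input of different numbers they correlated at -0.70 to 0.78 in Tet2 and at -0.74 to 0.69 in Tet2dRBD. These ranges overlap, so the correlations do not show that libraries of the same number were matched. Input fits used line only, or line and library set. The edgeR test gives no standard error. The SE shown for its fits is the absolute log2 ratio divided by the square root of the F statistic. Alternatives included DESeq2 1.42.0 and limma 3.58.1 on log2(TPM + 1). Scripts were tested on simulated data. The text names the 10 members, up to 3 other pathway genes past the threshold per comparison and direction, and the 3 genes most like each of 4 members; 1 gene that the rule names is not reported here. Members, lists and tests were chosen with earlier results of these data known. Gene positions and Lefty sequences come from GENCODE vM1 on NCBIM37 (mm9).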

Additional observations from a re-analysis of the deposited data

Results flagged for a closer look

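In groups of 4 libraries, 60 sets of values were checked against Dixon's 95% critical value. In 9 of them, the gap of 1 library to its nearest neighbor took up more of the whole range than that value allows (the share is given in parentheses). Chance gives this in about 1 of 20 groups only for independent values from a single distribution. Each group here mixed library sets, with 2 libraries from the same set, and the IP, input and ratio of a gene share libraries. That rate therefore does not apply, and whether 9 of 60 exceeds chance was not tested. In 5 of the 9, replicate 1 was the low library: Nodal in Tet2 input (0.958), Lefty2 in Tet2 IP (0.94) and Tet2 input (0.868), and Gdf3 in Tet2 input (0.853) and Tet2dRBD IP (0.839). Smad2 in Tet2dRBD IP was set apart by a high replicate 1 (14.1 TPM against 7.97 to 8.28 TPM, 0.949). Smad7 was set apart by a high replicate 2 in Tet2 IP (100.1 TPM, 0.963) and Tet2 input (65.6 TPM, 0.969). The log2 ratio of Lefty1 in Tet2dRBD was set apart by a low replicate 2 (-0.07 against 0.53 to 0.57, 0.942).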

How the results depend on the processing

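In the Tet1 IP, 0 of the 10 genes passed in each alternative but the fit of Tet1 libraries alone (6). In the Tet2 IP 2 passed, against 6 with limma on log2(TPM + 1) or log2(TPM + 0.1), 0 without the replicate block, 1 without the count filter, 0 with replicates 3 and 4 merged, 1 without library set 1, and 0 to 1 with 1 pair left out. In the Tet2dRBD IP 1 passed, against 5 with limma at either pseudocount, 0 without the replicate block, without the filter, without TMM, with replicates 3 and 4 merged, with the compared line only or without library set 1, and 0 to 4 with 1 pair left out. For the differences between IP effects and for Tet2dRBD against Tet2 input, 0 passed in every alternative run, the replicate block in the input fit included (0 of the 10, and 5 of 13178 genes). In Tet1 against Tet2 input 9 passed, against 0 with all 10 inputs and 5 with the set as a term. The Nodal value turned from -0.34 to 0.11 with all 10 inputs, the Nodal difference of Tet1 minus Tet2 IP effects turned from 0.24 to -0.036 with library set 3 only, and Lefty1 in Tet2dRBD against Tet2 input to -0.23 without Tet2dRBD replicate 2 (range with 1 library left out -0.23 to 0.92). With IP at least 1.5 times input in every pair, 0 of the 10 were above input in Tet1, Tet2 and Tet2dRBD, against 5.42%, 3.49% and 0.764% of all genes. By mean IP against mean input (no replicate block) 8 were above in Tet2dRBD, against 54.8% of all genes, and with 1 pair left out 0 to 7 were, against 21.3% to 34%. The cause was not tested. Over all genes, between 0 and 6985 passed in the Tet1 IP, 375 and 5933 in the Tet2 IP and 46 and 4009 in the Tet2dRBD IP. With limma on log2(TPM + 1), 5914 of 13710 genes passed in the Tet2 IP and 3853 in the Tet2dRBD IP. The standard error in the Tet2 IP was 0.14 for Tdgf1 and for the far less abundant Acvr1b.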
